A study of Mus musculus with 3 samples.

Results

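The BCL2 family decides whether a cell's mitochondria stay intact or release the factors that start apoptosis. Its survival proteins hold the pore-forming proteins BAX and BAK in check, and the BH3-only proteins, such as BIM and PUMA, bind the survival proteins or activate the pore formers. In CD8 T cells the family is known for setting how many activated effectors outlive the contraction of a response. The genes described here were 10 listed symbols: Bcl2, Bcl2l1, Mcl1, Bcl2a1b and Bcl2a1d of the survival group, the pore formers Bax and Bak1, and the BH3-only genes Bcl2l11, Bbc3 and Pmaip1. Of the 10, 9 had a probe set with that gene name, among 19505 named genes in all. Bax had none and was not measured here.

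Mouse CD8 T cells were activated with CD3 and CD28 stimulation and kept in cytokines that drive the Tc1 (interferon-gamma-producing cytotoxic) state, without added cholesterol (control), with 0.5 µg/ml cholesterol, or with 0.75 µg/ml cholesterol. Each condition gave 1 whole-transcript array of total RNA, so there is no test, no replicate check and no p-value, and precision is limited by this number of arrays. The labels do not give the mouse strain, the number of animals or cultures, the length of exposure or the cholesterol carrier, and the carrier's part cannot be told apart from that of cholesterol itself. Because the RNA is from bulk cultures, fewer cells of a kind and less RNA per cell cannot be told apart either.

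The arrays had median intensities between 32.4 and 33.0. All 5 of the measured CD8 T cell markers were above background on the 3 arrays. Cd8a was at 4225 in the control, 4164 with 0.5 µg/ml and 3313 with 0.75 µg/ml. Cd8b1 (2574, 2621 and 2030 in the same order) and Cd3d (1603, 1599 and 1269) were also lowest at 0.75 µg/ml. Cd3e (4364, 4650 and 4594) and Cd3g (2863, 2688 and 2692) were not. Of 13 measured markers of other cell types 1 was above background on any array. This was Cd79b, at 111 in the control, 100.3 with 0.5 µg/ml and 105 with 0.75 µg/ml. Background here is 102, the highest 95th percentile of the negative-control probe sets on any array. Differences are of log2 intensity between 2 arrays, and a gene was counted where it differed at least 2-fold. Of the 10940 genes that passed a filter on dim probe sets, 0.146% did so between 0.5 µg/ml and the control, 1.93% between 0.75 µg/ml and the control, and 1.59% between the doses.

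None of the 9 measured BCL2 family genes differed 2-fold in any of the 3 comparisons, and all 9 passed the filter. The differences that were present at 0.75 µg/ml went to higher values for the survival genes Bcl2l1 and Bcl2a1b, for Bcl2a1d, which was under background in the control, and for the BH3-only gene Bbc3, and to lower values for the BH3-only gene Bcl2l11. By measured values, 2 of the 9 were 1.5-fold or more higher at 0.75 µg/ml than in the control, Bcl2a1b and Bcl2a1d, and 1 was lower, Bcl2l11, where 2.53% and 4.55% of all genes were. With values under background raised to it, 1 was higher, Bcl2a1b, and 1 lower, beside 0.978% and 2.66% of all genes. At 0.5 µg/ml 1 of the 9 was past 1.5-fold higher by measured values, Bcl2a1d, and 0 were lower, beside 0.941% and 0.996% of all genes, and with dim values raised 0 of the 9 were. Between the doses 0 of the 9 reached 1.5-fold, beside 5.52% of all genes in either direction. Bcl2a1b and Bcl2a1d are copies of 1 gene in mice, and whether their probe sets read separate transcripts was not tested.

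As a measure of scatter between arrays, the 1165 positive-control probe sets past the same filter had an SD of 0.30 between 0.5 µg/ml and the control, 0.31 between 0.75 µg/ml and the control, and 0.30 between the doses, in log2 units. This is a spread over probe sets of 2 arrays, not a replicate error. The SD over all genes past the filter was 0.21, 0.36 and 0.32 in the same order of comparisons, so at 0.5 µg/ml the positive controls spread more widely than the genes. At 0.75 µg/ml 5 of the 9 genes differed from the control by more than the positive-control SD, as did 25.3% of all genes. At 0.5 µg/ml 2 of the 9 did, beside 13.2% of all genes, and between the doses 3 of the 9 did, beside 21.5%. Bcl2a1d is among the 5 and among the 2, and with dim values raised to background the counts against the control were 4 of 9 at 0.75 µg/ml and 1 of 9 at 0.5 µg/ml, beside 15.2% and 5.33% of all genes.

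**Figure D1:**
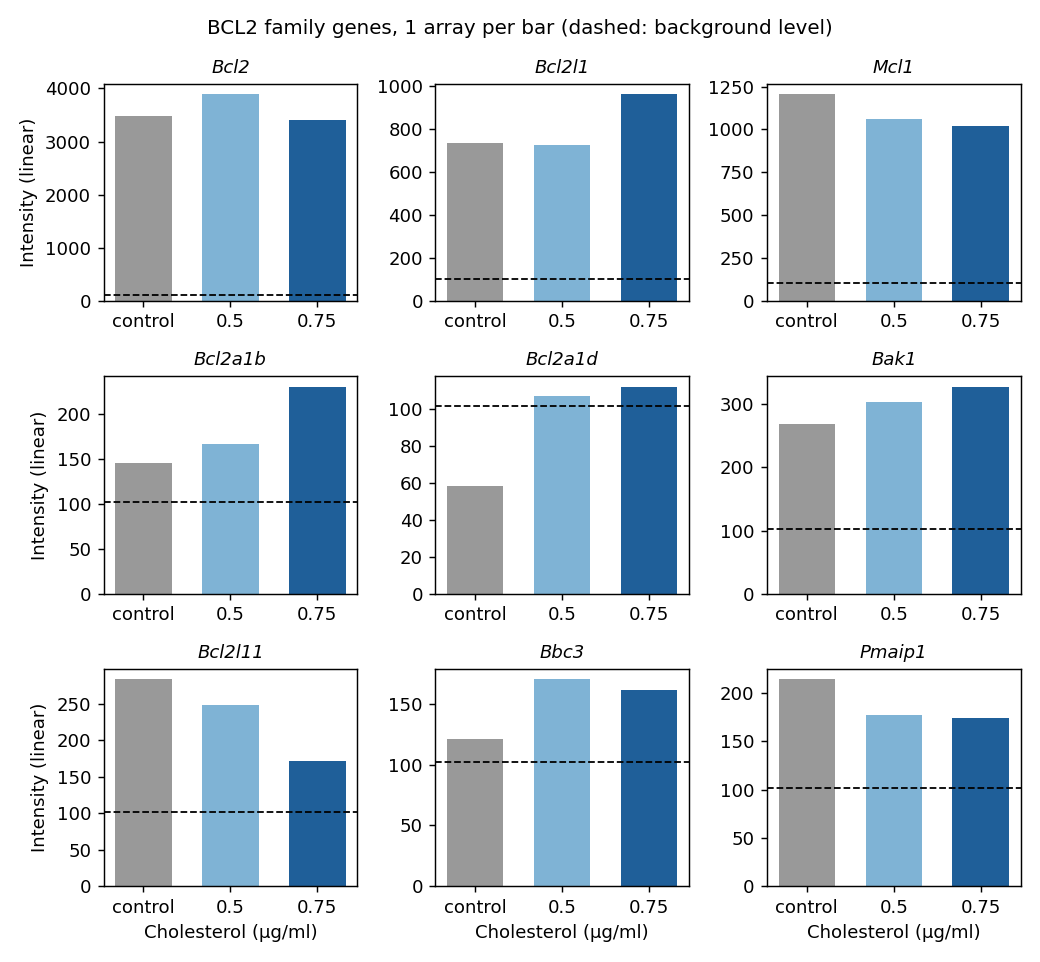
Intensity on a linear scale (y axis, starting at 0 and scaled separately in each panel) of the 9 measured BCL2 family genes on the control array and the arrays at 0.5 and 0.75 µg/ml cholesterol (x axis). Each bar is 1 array and the dashed line is the background level of 102. Bcl2l11 is lowest at 0.75 µg/ml, Bcl2l1 and Bcl2a1b are highest there, and the control bar of Bcl2a1d lies under the dashed line.

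Among the survival genes, Bcl2, the founding member of the family, had an intensity of 3475 in the control, 3895 with 0.5 µg/ml and 3403 with 0.75 µg/ml. The highest of the 3 values was the one at 0.5 µg/ml, and the value at 0.75 µg/ml was within 0.03 log2 units of the control. The log2 difference was 0.16 between 0.5 µg/ml and the control, -0.03 between 0.75 µg/ml and the control and -0.20 between the doses, all inside the scatter of the positive controls.

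Bcl2l1, which encodes BCL-XL and in T cells is known as a survival gene induced by costimulation, was at 731 in the control, 723 with 0.5 µg/ml and 961 with 0.75 µg/ml. The control and the lower dose were nearly level, and the array at 0.75 µg/ml stood above both. Its log2 difference was -0.02 at 0.5 µg/ml and 0.39 at 0.75 µg/ml against the control, and 0.41 between the doses, which corresponds to 1.33-fold. A probe set of the whole gene does not tell the long, survival-promoting splice form from the short form, which has the opposite activity.

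Mcl1, a short-lived survival protein that T cells need at most stages, was at 1207 in the control, 1060 with 0.5 µg/ml and 1018 with 0.75 µg/ml. The control was the highest of the 3, and the differences of -0.19 at 0.5 µg/ml and -0.24 at 0.75 µg/ml were inside the scatter of the positive controls. MCL1 is controlled to a large extent through protein turnover, which these arrays do not read.

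The A1 survival genes exist in mice as several copies on chromosome 9, and the upstream stretches of 3 of them are shown so that the copies can be compared. These stretches lie before the annotated starts, and no transcript or probe sequences were compared. The sequences, credited to RefSeq on GRCm38.p6, run 5′ to 3′ on each gene's own strand, and capitals mark bases that differ between the copies in an alignment, inserted bases included. The Bcl2a1d stretch is chr9:88731851-88732050 (minus strand), that of Bcl2a1b is chr9:89199023-89199228 (plus strand) and that of Bcl2a1a is chr9:88956714-88956919 (plus strand).
Bcl2a1d: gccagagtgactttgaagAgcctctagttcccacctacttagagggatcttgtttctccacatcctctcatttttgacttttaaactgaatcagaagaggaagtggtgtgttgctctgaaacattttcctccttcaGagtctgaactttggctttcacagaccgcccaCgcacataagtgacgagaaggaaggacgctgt
Bcl2a1b: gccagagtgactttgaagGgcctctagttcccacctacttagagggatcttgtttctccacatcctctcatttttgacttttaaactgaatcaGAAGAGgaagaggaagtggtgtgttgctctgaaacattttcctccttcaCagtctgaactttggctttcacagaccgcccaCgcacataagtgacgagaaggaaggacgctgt
Bcl2a1a: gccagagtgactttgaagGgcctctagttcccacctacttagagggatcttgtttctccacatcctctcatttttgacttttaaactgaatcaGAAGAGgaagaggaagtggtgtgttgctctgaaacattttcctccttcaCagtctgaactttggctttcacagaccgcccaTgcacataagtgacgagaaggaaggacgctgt
Over 206 aligned columns Bcl2a1b and Bcl2a1a differed in 1, Bcl2a1d and Bcl2a1b in 8, and Bcl2a1d and Bcl2a1a in 9. The identity was 99.5%, 96.1% and 95.6% in that order. All 3 stretches contain a match to TGANTCA, a loose form of the AP-1 motif that leaves the middle base open and is the same pattern on both strands. The match in each stretch reads TGAATCA. Of all 32851 promoter windows of 300 bases, 7.81% hold a match with any middle base. A match is a description of the letters only.

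Bcl2a1b was at 146 in the control, 167 with 0.5 µg/ml and 231 with 0.75 µg/ml. The order followed the dose, and all 3 arrays were above background. The log2 difference from the control was 0.19 at 0.5 µg/ml and 0.66 at 0.75 µg/ml, or 1.58-fold, and 0.47 between the doses.

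Bcl2a1d was at 58.5 in the control, 107 with 0.5 µg/ml and 112 with 0.75 µg/ml. The control was under background and both doses were just above it, so the differences of 0.87 and 0.94 in log2 units rest on a dim value. Against the background level, Bcl2a1d was at least 1.05-fold higher at the lower dose than in the control, and at the higher dose at least 1.10-fold. Bcl2a1a, a further copy that was outside the 10 listed genes, was at 74.4 in the control, 94.3 with 0.5 µg/ml and 119 with 0.75 µg/ml, at least 1.17-fold higher at 0.75 µg/ml over the background level. Only Bcl2a1b was above background on every array, so an order over all 3 arrays can be read for that copy alone. How much each probe set takes up signal from the other copies was not tested.

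**Figure D2:**
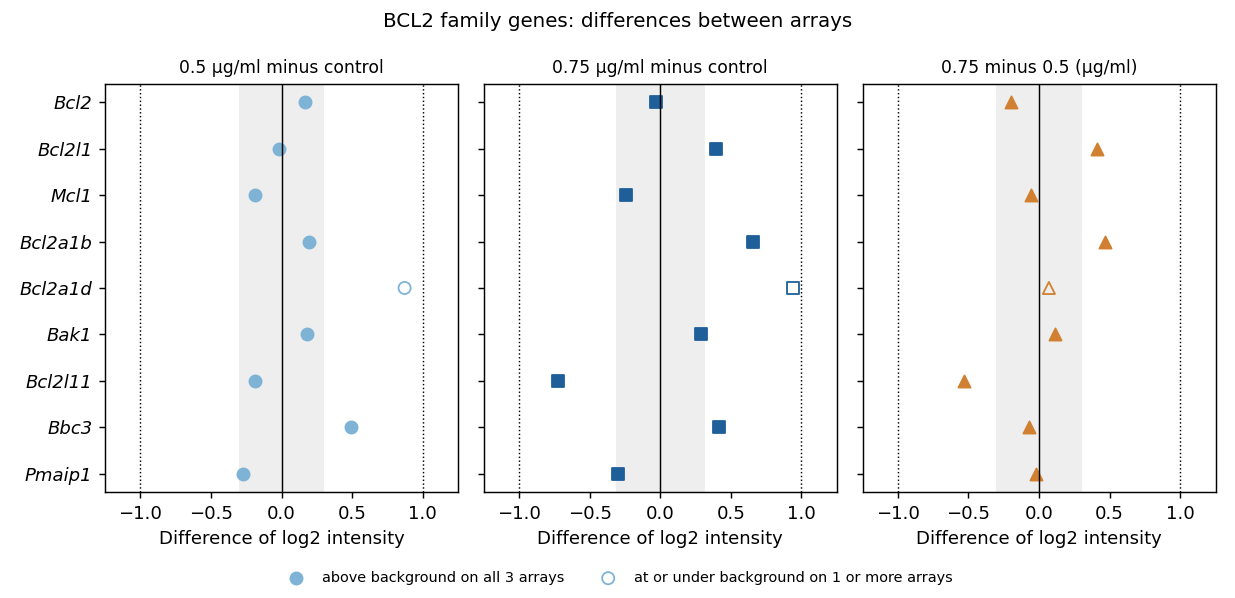
Difference of log2 intensity between 2 arrays (x axis) for the 9 measured BCL2 family genes (y axis), in one panel per comparison. Each symbol is 1 gene, open where 1 or more arrays were under background, the grey band is 1 SD of the positive-control probe sets to each side of 0, and the dotted lines mark 2-fold. No symbol crosses a dotted line. At 0.75 µg/ml against the control Bcl2l11 (-0.72) lies to the left of the band. Bcl2l1 (0.39), Bbc3 (0.42), Bcl2a1b (0.66) and Bcl2a1d (0.94) lie to the right of it.

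Of the pore formers, Bak1 was at 268 in the control, 304 with 0.5 µg/ml and 328 with 0.75 µg/ml. The values followed the dose, and the log2 differences from the control were 0.18 and 0.29 at the rising doses, which did not exceed the scatter of the positive controls. BAK, its product, sits in the outer mitochondrial membrane and forms pores when activated.

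Among the BH3-only genes, Bcl2l11 had the most different value of those above background on all arrays. It encodes BIM, which in mice is a main driver of the death of activated T cells after a response. Its intensity was 283 in the control, 248 with 0.5 µg/ml and 171 with 0.75 µg/ml, an order that followed the dose, with the array at 0.75 µg/ml well under both others. Bcl2l11 was 1.65-fold lower at 0.75 µg/ml than in the control, a log2 difference of -0.72. The log2 difference was -0.19 between 0.5 µg/ml and the control and -0.53 between the doses.

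Transcription factors of the FOXO group are known to induce Bcl2l11, so the stretch with the only match to their motif GTAAACA in its 2 RefSeq promoter windows is shown, from chr2:128125791-128125847 (plus strand, GRCm38.p6), with the match in capitals.
Bcl2l11: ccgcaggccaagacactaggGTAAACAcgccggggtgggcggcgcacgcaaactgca
The match starts 227 bases before the annotated start, and 3.65% of all promoter windows hold this motif on either strand. Of the 14 RefSeq windows of the listed genes 2 hold this motif. The other is one of Bbc3, which was higher than the control at both doses. Likewise 2 each hold those of AP-1, NF-kappaB (in 8.46% of all windows) and the hypoxia response core described further on. The 14 windows belong to 9 of the 10 listed genes, with Bax included and none for Pmaip1. Some genes have several windows, and the 2 with AP-1 are those of the copies Bcl2a1b and Bcl2a1d. Foxo1, which encodes a FOXO factor of T cells, was at 572 in the control, 447 with 0.5 µg/ml and 406 with 0.75 µg/ml, with log2 differences from the control of -0.36 and -0.49 at the rising doses. Foxo3, of the same group and named after its values were seen, was at 302, 278 and 262 in the order of the dose. Its log2 differences from the control, -0.12 and -0.20, were inside the scatter of the positive controls. A link of Foxo1 or Foxo3 to Bcl2l11 was not tested.

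Bbc3 encodes PUMA, a BH3-only protein that p53 and other stress factors induce. Its intensity was 121 in the control, 170 with 0.5 µg/ml and 162 with 0.75 µg/ml. Both doses stood above the control and close to each other, with log2 differences from the control of 0.49 and 0.42 and one of -0.07 between the doses. The control value was only slightly above background.

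Pmaip1 encodes NOXA, a BH3-only protein that binds mainly MCL1. It was at 214 in the control, 177 with 0.5 µg/ml and 174 with 0.75 µg/ml. Both doses were lower than the control and nearly level with each other, and the log2 differences from the control were -0.27 and -0.30 at the rising doses, inside the scatter of the positive controls.

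The BH3-only genes thus did not share a direction. At 0.75 µg/ml Bcl2l11 and Pmaip1 were lower than the control and Bbc3 was higher. Over all 9 measured genes the median log2 difference was 0.16 at 0.5 µg/ml and 0.29 at 0.75 µg/ml against the control, with 5 genes above and 4 below it in both comparisons, which share 1 control array. With values under background raised to it the medians were 0.0725 and 0.142. The medians of all genes past the filter were 0.01 and 0.00. Between the doses the median of the 9 genes was -0.02, with 4 above and 5 below 0, beside a median of -0.01 for all genes.

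A second list held further members of the family and also Bclaf1, named for binding BCL2-related proteins. On this list 17 genes had a named probe set, 13 passed the filter and 7 were above background on at least 1 array. None differed 2-fold in any comparison. By measured values 1 of the 13 was past 1.5-fold higher at 0.75 µg/ml than in the control, Bcl2a1a, whose bound against background is the 1.17-fold given above, and 2 were past 1.5-fold lower, Bnip3 and Bnip3l, beside 2.53% and 4.55% of all genes. With dim values raised to background the counts were 0 and 2, beside 0.978% and 2.66% of all genes. The median of the 17 was 0.03 at 0.5 µg/ml and -0.04 at 0.75 µg/ml against the control.

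Bnip3 and Bnip3l encode related proteins of the outer mitochondrial membrane that recruit the autophagy machinery to mitochondria, and both are known as hypoxia-inducible genes. Bnip3 was at 926 in the control, 1155 with 0.5 µg/ml and 581 with 0.75 µg/ml. The array at 0.5 µg/ml was the highest and the one at 0.75 µg/ml the lowest, so the largest gap lay between the doses, with a log2 difference of -0.99, just short of 2-fold. Its log2 difference from the control was 0.32 at 0.5 µg/ml and -0.67 at 0.75 µg/ml. Bnip3l was at 1017 in the control, 1036 with 0.5 µg/ml and 563 with 0.75 µg/ml. The control and the lower dose were level, and the log2 difference at 0.75 µg/ml was -0.85 against the control and -0.88 against 0.5 µg/ml.

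Because hypoxia-inducible factors bind a core of ACGTG, the part of the Bnip3 promoter window that holds it is shown, from chr7:138909579-138909634 (minus strand, GRCm38.p6), with the match, which overlaps itself on both strands, in capitals.
Bnip3: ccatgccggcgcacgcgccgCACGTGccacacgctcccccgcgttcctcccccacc
This short core is in 19.6% of all promoter windows on either strand. It is also in a window each of Bbc3, which was higher than the control at both doses, Bax and Bmf. No window was available for Bnip3l, and a link of hypoxia factors to Bnip3 or Bnip3l was not tested.

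Of the other genes of the second list above background, the survival gene Bcl2l2, which encodes BCL-W, was at 177 in the control, 146 with 0.5 µg/ml and 129 with 0.75 µg/ml. Its values ran down with the dose, and the log2 difference at 0.75 µg/ml was -0.46. Bclaf1, named for binding BCL2-related proteins and also an RNA-processing factor, was at 501 in the control, 513 with 0.5 µg/ml and 603 with 0.75 µg/ml. Bik and Bcl2l13 differed by at most 0.08 from the control on the log2 scale at either dose. The BH3-only genes Bad, Bid, Bmf and Hrk and the BAX relative Bok, which are named after their values were seen, were under background on all 3 arrays.

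**Figure D3:**
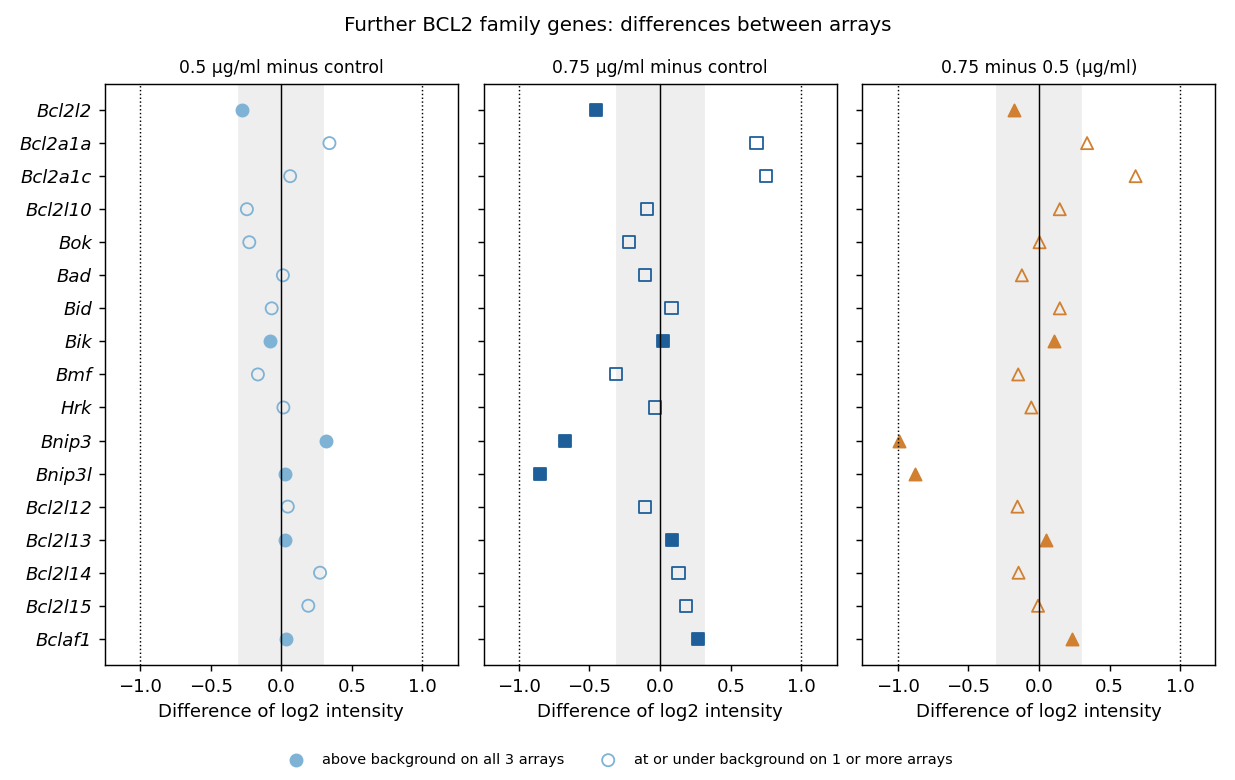
Difference of log2 intensity between 2 arrays (x axis) for the 17 genes of the second list, further BCL2 family members and Bclaf1, with a named probe set (y axis), in one panel per comparison. Each symbol is 1 gene, open where 1 or more arrays were at or under background, the grey band is 1 SD of the positive-control probe sets to each side of 0, and the dotted lines mark 2-fold. Bnip3 (-0.67) and Bnip3l (-0.85) lie to the left at 0.75 µg/ml against the control, and Bnip3 (-0.99) comes closest to 2-fold between the doses.

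The patterns of the genes over the 3 arrays were also set side by side, by the distance between their pairs of log2 differences from the control. Of the 25 other genes of the member list and the second list, Bcl2a1a was nearest to Bcl2a1b, at 0.15 log2 units, and also nearest to Bcl2a1d, at 0.59. Bcl2a1a was above background only at 0.75 µg/ml and Bcl2a1d was under it in the control, so the distances to Bcl2a1a rest on dim values. Bnip3l was nearest to Bcl2l11, at 0.25, and Bclaf1 nearest to Bcl2l1, at 0.14. Bok, which is under background, was nearest to Mcl1 and to Pmaip1, at 0.04 and 0.09, and Bcl2a1a was nearest to Bbc3, at 0.30. The dim genes Bcl2l12 and Bcl2l15 were nearest to Bcl2 and Bak1, at 0.14 and 0.11. These distances rest on 3 arrays and describe them only.

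Downstream of mitochondria, the apoptosome of APAF1 and cytochrome c activates caspases. Of 12 measured genes of that list 11 passed the filter, and 0 of these differed 2-fold or 1.5-fold from the control at either dose. Among all genes, 0.941% were 1.5-fold higher and 0.996% lower at 0.5 µg/ml, and 2.53% and 4.55% at 0.75 µg/ml. In a list of 11 genes a count of 0 is close to these shares. The median log2 difference was 0.03 at both doses. Diablo, whose product SMAC is released from mitochondria and relieves the block on caspases, was at 338 in the control, 453 with 0.5 µg/ml and 505 with 0.75 µg/ml. Diablo ran up with the dose, and its log2 difference of 0.58 at 0.75 µg/ml corresponds to 1.49-fold. Htra2, which encodes a mitochondrial protease released in the same way, was at 781 in the control, 639 with 0.5 µg/ml and 649 with 0.75 µg/ml, and Casp2 differed by -0.23 at 0.75 µg/ml. Casp9, the caspase of the apoptosome, was under background on all 3 arrays, at 67.2, 68.4 and 47.7 in the order of the dose.

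The inhibitor of apoptosis proteins bind caspases or control signalling through ubiquitin. All 7 listed genes were measured, 6 passed the filter and 0 of these differed 1.5-fold from the control at either dose. Beside this, 0.941% of all genes were higher and 0.996% lower at 0.5 µg/ml, and 2.53% and 4.55% at 0.75 µg/ml. In a list of 6 genes a count of 0 is close to these shares. The list median was -0.02 at 0.5 µg/ml and 0.02 at 0.75 µg/ml against the control. Birc2 was at 149 in the control, 149.6 with 0.5 µg/ml and 117 with 0.75 µg/ml. Birc5, the survivin gene of dividing cells, and Xiap, the most direct caspase inhibitor, differed by 0.10 and -0.04 at 0.75 µg/ml, and Naip2 was under background throughout.

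In the death receptor pathway, which starts caspase activation from the cell surface, 10 genes were measured and passed the filter. None differed 2-fold, and 1 was at least 1.5-fold higher at 0.75 µg/ml than in the control, where 2.53% of all genes were. That gene was Tnfsf10, which encodes the death ligand TRAIL, at 211 in the control, 262 with 0.5 µg/ml and 319 with 0.75 µg/ml. The ligand gene Fasl, at 193 in the control, 210 with 0.5 µg/ml and 145 with 0.75 µg/ml, was lowest at 0.75 µg/ml, with a log2 difference of -0.41 from the control. Its receptor gene Fas was at 268 in the control, 212 with 0.5 µg/ml and 209 with 0.75 µg/ml. Ripk3, the kinase of necroptosis, was at 488 in the control, 588 with 0.5 µg/ml and 617 with 0.75 µg/ml. The list had medians of 0.02 and 0.13 at the rising doses.

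Of the genes for turnover and control of BCL2 family proteins, 15 were measured and 13 passed the filter. Of these 0 differed 1.5-fold from the control at either dose, beside 2.53% of all genes higher and 4.55% lower at 0.75 µg/ml. The medians were -0.02 and -0.03 at the rising doses. Huwe1, whose product is a ubiquitin ligase for MCL1, was at 229 in the control, 188 with 0.5 µg/ml and 309 with 0.75 µg/ml. Its difference between the doses, 0.72 on the log2 scale, was the only one of the 13 past 1.5-fold. By comparison, 5.52% of all genes differed 1.5-fold in either direction between the doses. Vdac3, a channel of the outer mitochondrial membrane, was at 553 in the control, 670 with 0.5 µg/ml and 685 with 0.75 µg/ml. The cell-cycle factor gene E2f1 was at 315 in the control, 285 with 0.5 µg/ml and 241 with 0.75 µg/ml.

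Cytokines of the common gamma chain family keep T cells alive in part through BCL2 family genes. All 8 measured genes of their receptors and signalling proteins passed the filter and 0 differed 1.5-fold, with a median of 0.01 at both doses. At that limit 2.53% of all genes were higher and 4.55% lower at 0.75 µg/ml than in the control. Il2ra, the inducible chain of the interleukin-2 receptor, was at 838 in the control, 893 with 0.5 µg/ml and 1017 with 0.75 µg/ml. Il7r was at 1015 in the control, 1025 with 0.5 µg/ml and 845 with 0.75 µg/ml, and Stat5b differed by 0.10 at 0.75 µg/ml. Il15ra was at 139 in the control and just under background at both doses, at least 1.37-fold lower at 0.75 µg/ml against the background level.

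**Figure D4:**
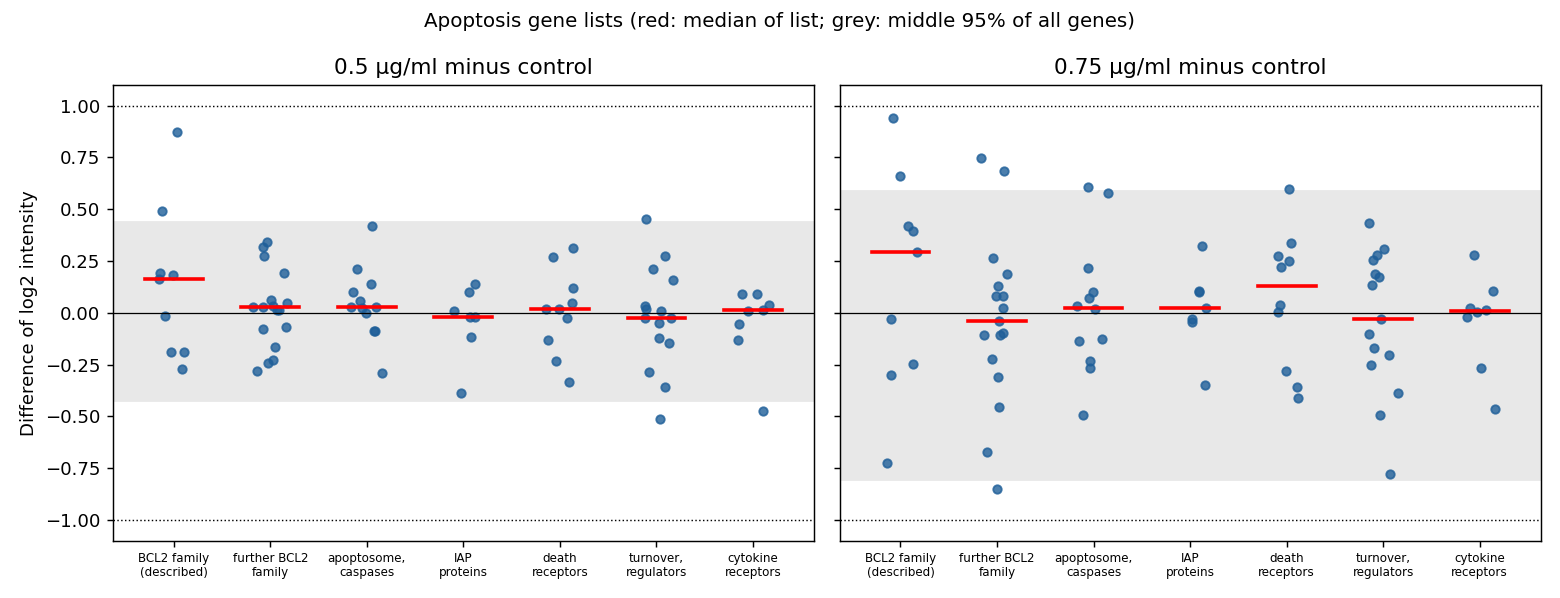
Difference of log2 intensity from the control (y axis) at 0.5 µg/ml (left) and 0.75 µg/ml (right) for the 9 measured BCL2 family genes and the measured genes of the 6 other lists (x axis). Each point is 1 gene, the red line is the median of the list, the grey band is the middle 95% of the 10940 genes past the filter and the dotted lines mark 2-fold. No listed gene crosses a dotted line, and the median of the 9 genes is 0.29 at 0.75 µg/ml.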

How the data were processed

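The data were 1 intensity per probe set and array for 28846 probe sets, in the table as the authors deposited it. Per the labels, Trizol RNA was biotin-labelled for whole-transcript sense targets. The values are on a linear scale, and how they were background-corrected and normalized is not given in the sources here. Probe sets were named by the platform annotation, and 2634 of the 22206 transcript probe sets were unnamed. The brightest of several probe sets was taken per gene (each member had 1). The filter kept genes with a mean log2 of at least 5.02, the median of all probe sets, an intensity of 32.4, which also let through 19.8% of negative controls. Comparisons were differences of log2 intensity between 2 arrays, with no test. Where 1 array was under background, the fold was computed against 102. A bound is written as "at least". The difference and count steps were tested on simulated data at the 2-fold limit only, with planted differences larger than that of any member. The simulation did not cover the 1.5-fold limit. The members and lists were chosen with earlier results of these data known.

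Named were all 10 members and each gene of the second list above background on 1 array or more. From each other list, up to 4 genes past the filter with the largest difference at 0.75 µg/ml were named. Exceptions are marked. Promoter windows were 250 bases before to 50 after RefSeq starts, aligned with MAFFT, and the match search covered the motifs of FOXO, hypoxia factors, AP-1 and NF-kappaB on both strands. Python 3.11.15, numpy 2.4.6, pandas 2.3.3 and matplotlib 3.10.9 were used. Alternatives were a floor at background, log2(intensity + 16), quantile normalization, centring on positive controls, the mean of probe sets, a 1.5-fold limit and no filter.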

Additional observations from a re-analysis of the deposited data

How the results depend on the processing

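No paired analysis was possible because each condition had 1 array and none of the values comes from a test. For the 27 member differences under 5 alternatives, 26 kept their sign in all. The exception was Pmaip1 between the doses, where the value lay near 0. Only quantile normalization and centring on positive controls could reverse a sign. The floor and the offset keep the order of values, and the mean of probe sets left every member unchanged. Raising dim values to background brought the Bcl2a1d differences from the control to 0.0725 at 0.5 µg/ml and 0.14 at 0.75 µg/ml, because its control value is under background. Other alternatives moved no member by more than 0.16 log2 units. With that floor the median of the 9 members against the control was 0.0725 at 0.5 µg/ml and 0.142 at 0.75 µg/ml, against 0.16 and 0.29 as measured. The list medians moved by less than the positive-control SD under every alternative, including members past the filter only, which was added after seeing the data. Every measured list median was itself smaller than that SD, so this limit would not register a median falling to 0. Some medians near 0 changed sign, such as that of the turnover list at 0.75 µg/ml against the control. It went from -0.03 to 0.02 with quantile normalization.

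With a limit of 1.5-fold instead of 2-fold, counts that were 0 at 2-fold became 1 of the 9 members at 0.5 µg/ml and 3 at 0.75 µg/ml against the control, 3 further family genes at 0.75 µg/ml and 2 between the doses, 1 death receptor gene at 0.75 µg/ml, and 1 turnover gene between the doses. With dim values also raised to background, an alternative added after seeing the data, these counts were 0 and 2 for the members, 2 and 2 for the further family, 1 for the death receptor genes and 1 for the turnover genes. Centring on positive controls put 1 further family gene, Bnip3, at 2-fold between the doses.

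Over all genes, counts at least 2-fold higher and lower were 10 and 6 at 0.5 µg/ml against the control, 39 and 172 at 0.75 µg/ml against the control, and 44 and 130 between the doses. With the floor they were 2 and 1, 15 and 98, and 12 and 75. With log2(intensity + 16) they were 2 and 2 at 0.5 µg/ml, 25 and 128 at 0.75 µg/ml, and 27 and 89 between the doses. At 1.5-fold they were 103 and 109, 277 and 498, and 197 and 407. With no filter they were 25 and 29 at 0.5 µg/ml, 82 and 209 at 0.75 µg/ml, and 76 and 145 between the doses. With 1 array per condition, intensities near background (Bcl2a1d, Bcl2a1a, Bbc3 in the control) are the least certain.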

Other observations

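The ratio of Bcl2l1 to Bcl2l11 intensity was set between arrays, a pair picked, like the others here, after its values were seen. Since both genes are read on the same array, an overall scale factor cancels in it, though the levels of the 2 probe sets cannot be compared with each other. This ratio was 2.17 times as high at 0.75 µg/ml as in the control and 1.13 times as high at 0.5 µg/ml as in the control. The ratio of Bcl2 to Bcl2l11 was 1.62 times as high at 0.75 µg/ml as in the control, and that of Mcl1 to Bcl2l11 was 1.39 times as high. Against Bbc3, which was higher than the control at both doses, the ratios were not raised: at 0.75 µg/ml they were 0.984 times those of the control for Bcl2l1, 0.733 for Bcl2 and 0.632 for Mcl1. The ratio of Mcl1 to Pmaip1, whose products bind each other, was 1.04 times as high. With 1 array per condition these ratios have no replicate check.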
